A study of Arabidopsis thaliana with 6 samples.

Results

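WRKY and NAC transcription factors were followed in leaves of the Arabidopsis thaliana mutant pam48, which carries the allele mterf6-1, and of wild type. Members were the genes whose annotation symbol is WRKY or NAC with a number and that had a probe set of their own. Such a probe set is one listed for that gene alone in GEO's platform annotation, and the one of highest mean represented the gene. The members were 7 of 13350 genes with such a probe set, namely WRKY6, WRKY20, WRKY22, WRKY42, WRKY47, WRKY53 and NAC014. The TAIR10.1 gene table holds 148 symbols of this form, 67 WRKY and 81 NAC, so the 7 genes are a small sample of both families, and NAC014 alone stands for the NAC family. The annotation gave no gene for 8730 of 22746 probe sets, and whether these hold further WRKY or NAC genes was not examined. Each of the 7 had 1 probe set. Averaged over the arrays, 5 of the 7, all but WRKY20 and NAC014, were in the dimmest 40% of probe sets, and whether those stood above background was not examined. Both genotypes are of the ecotype Col-0, were grown on soil in a greenhouse in long days without any treatment, and were harvested at the stage of 8 leaves. There were 3 arrays of pam48 and 3 of wild type, each labelled a biological replicate, and the mutant is represented by 1 allele with no rescued line among the arrays.

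WRKY proteins bind DNA through a domain named after its conserved letters and recognise the W box, an element common in promoters of defence and senescence genes. Many WRKY genes are themselves switched on within minutes to hours of wounding, touch or contact with microbes, downstream of MAP kinases. NAC proteins share a DNA-binding domain named after NAM, ATAF and CUC, and act in organ boundaries, secondary walls, senescence and stress. Some of them are held at membranes until they are released to the nucleus, and NAC013 and NAC017 of this kind drive the response to mitochondrial dysfunction. MTERF6, the gene behind the mutant's second name, encodes a protein of the mTERF family, which acts on gene expression in plastids and mitochondria.

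Levels are RMA log2 values, and a difference is the mean of pam48 minus the mean of wild type on that scale. Array medians lay between 6.39 and 6.55, and correlations between arrays were between 0.952 and 0.992. The leaf marker RCA, Rubisco activase, was between 14.15 and 14.37 on all 6 arrays. CLV3 of the shoot apex was at 3.20, 3.34 and 3.23 in pam48 and at 3.70, 3.45 and 3.53 in wild type (difference −0.31 ± 0.11, limma adjusted p = 0.301). FMA, a guard cell gene, was at 5.48, 5.47 and 5.55 in pam48 and at 5.96, 6.08 and 5.70 in wild type (difference −0.41 ± 0.13, limma adjusted p = 0.238), and no marker of xylem or phloem was analysed here. CLV3 and FMA lay below all array medians, and whether they stood above background was not examined. PYK10, a root beta-glucosidase, was uneven, at 5.56, 9.74 and 7.29 in pam48 and at 8.51, 5.21 and 5.19 in wild type. The level of MTERF6 was not analysed here. The labels do not say how many plants gave an extract, and in whole leaves fewer cells of a type and less RNA per cell cannot be told apart.

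By limma none of the 7 genes passed an adjusted p under 0.05, either with all 6 arrays, where 0.778% of 22746 probe sets were called, or without pam48 replicate 1, where 1.28% were. At an unadjusted p under 0.05 stood 1 of the 7 with all arrays, WRKY53, against 13.5% of all probe sets, or 6.79% counting those with a higher mean in pam48. Without pam48 replicate 1 there were 2, against 15.9% of all. These were WRKY53 with a higher mean in pam48, as in 8.72% of all probe sets, and WRKY22 with a lower one, as in 7.19%. The genotypes did not overlap in 3 of the 7, beside 20.5% of all probe sets. Every pam48 array lay above every wild-type array in 2 of them, WRKY42 and WRKY53, as in 9.14% of all, and below in WRKY20. Without pam48 replicate 1 the count was 4, with WRKY22 added, beside 35.5% of all. WRKY53 had the widest difference of the 7, 2.14-fold, and its size depended on 1 array. The median difference of the 6 WRKY genes was 0.20, beside −0.03 over all probe sets, and without pam48 replicate 1 it was 0.09.

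**Figure D1:**
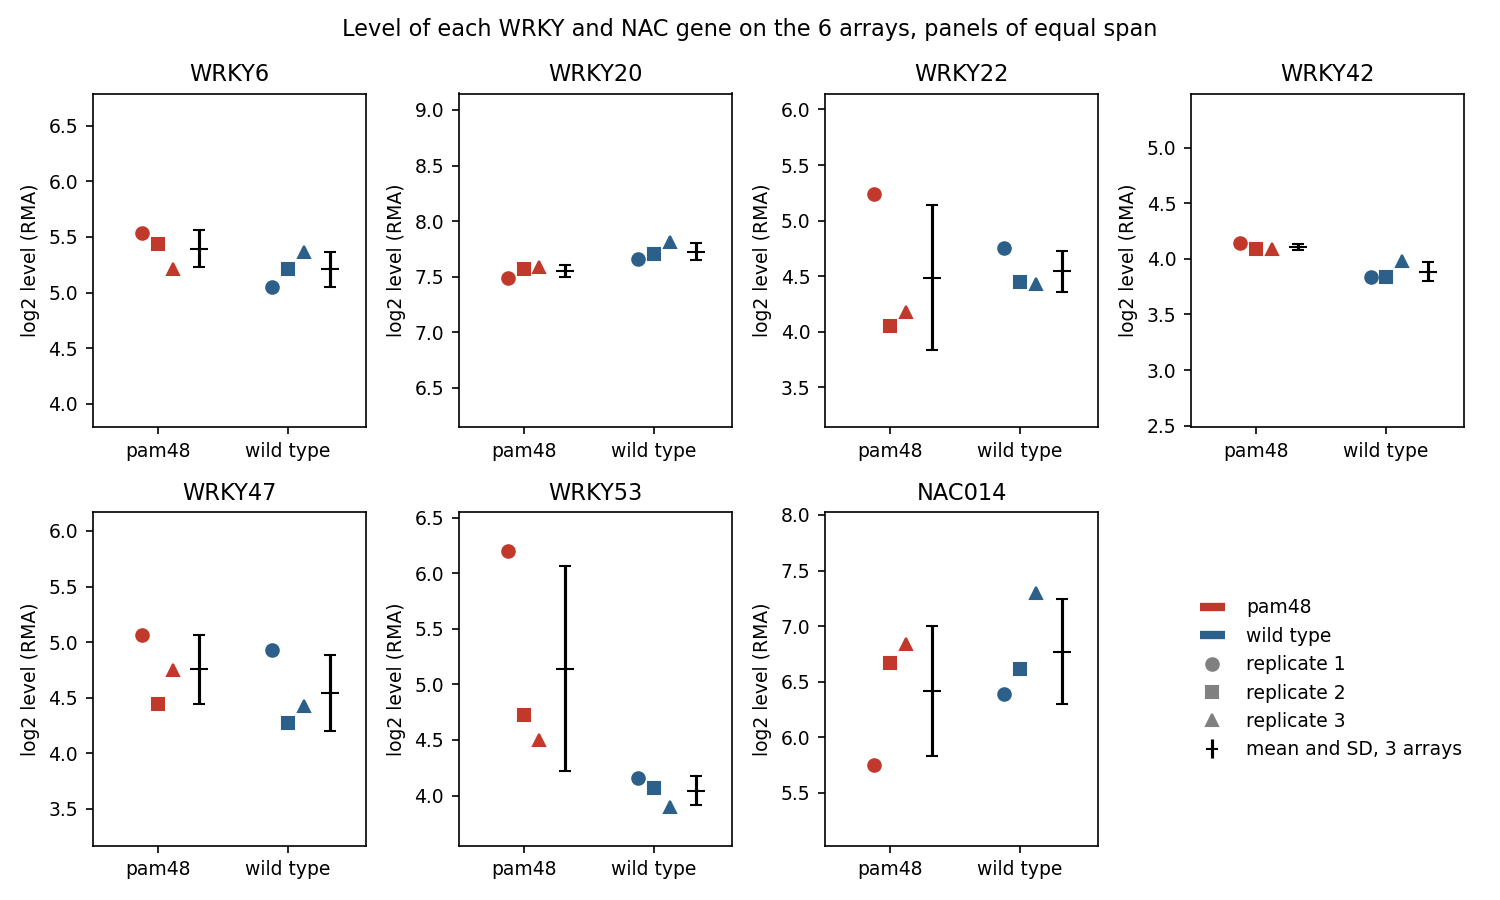
RMA log2 level of the 7 genes on each array, with pam48 in red at the left and wild type in blue at the right of each panel, and the mean and SD of 3 arrays in black. pam48 replicate 1 stands apart from the other pam48 arrays in WRKY53 (6.20), WRKY22 (5.24) and NAC014 (5.75).

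WRKY53 (AT4G23810), a factor of group III known as an early regulator of leaf senescence and a gene of basal defence, was at 6.20, 4.73 and 4.50 in pam48 replicates 1, 2 and 3, and at 4.16, 4.07 and 3.90 in wild type. Every pam48 array lay above every wild-type array, and pam48 replicate 1 lay 1.47 above the next highest array. The means were 5.14 ± 0.92 in pam48 and 4.04 ± 0.13 in wild type (SD, n = 3 each). The difference was 1.099 ± 0.43 (SE), with a 95% interval between 0.07 and 2.13 and a limma adjusted p of 0.340. Of all probe sets 1.07% had a higher difference.

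Without pam48 replicate 1 the mean of WRKY53 in pam48 was 4.61, and the difference was 0.57 ± 0.14, which is 1.48-fold, with an interval between 0.24 and 0.90. The estimate was smaller than with all arrays and its standard error was smaller too, and the limma adjusted p was 0.131 (unadjusted p = 0.00544). In that fit 4.89% of all probe sets had a higher difference. Between arrays of the same replicate number WRKY53 was higher in pam48 by 2.04, 0.66 and 0.60. As every pam48 array lay above every wild-type array, any pairing gives this direction.

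WRKY22 (AT4G01250), a factor of group IIe known downstream of the MAP kinase cascade that flagellin sets off, was at 5.24, 4.05 and 4.18 in pam48, and at 4.76, 4.45 and 4.43 in wild type. pam48 held both the highest array and the 2 lowest, so the genotypes overlapped. With all arrays the difference was −0.06 ± 0.32, with an interval between −0.82 and 0.71 and a limma adjusted p of 0.962.

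Without pam48 replicate 1 both remaining pam48 arrays of WRKY22 lay below all wild-type arrays. The difference was then −0.43 ± 0.15, with an interval between −0.78 and −0.08 and a limma adjusted p of 0.242 (unadjusted p = 0.0232). In that fit 93.6% of all probe sets had a higher difference than WRKY22. Its pairs differed in direction, at 0.48 for number 1, −0.40 for number 2 and −0.25 for number 3. The mean of WRKY22 over 3 arrays is thus made of 1 array above and 2 below wild type.

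WRKY6, WRKY42 and WRKY47 belong to group IIb. WRKY6 (AT1G62300), known in senescence and, with WRKY42, as a repressor of the phosphate exporter gene PHO1, was at 5.53, 5.44 and 5.21 in pam48 and at 5.05, 5.21 and 5.36 in wild type. The genotypes overlapped, and the difference was 0.19 ± 0.14 with all arrays (limma adjusted p = 0.610) and 0.12 ± 0.15 without pam48 replicate 1.

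WRKY42 (AT4G04450), which in addition is known to activate a phosphate uptake gene, was at 4.14, 4.09 and 4.09 in pam48 and at 3.84, 3.83 and 3.98 in wild type. The genotypes did not overlap, and the spread among pam48 arrays was small, with an SD of 0.03; 97.8% of all probe sets had a larger SD in pam48. The difference of WRKY42 was 0.22 ± 0.10, with an interval between −0.01 and 0.46 (limma adjusted p = 0.395), and it was nearly the same without pam48 replicate 1, at 0.21 ± 0.12. WRKY42 was thus the higher gene in pam48 whose value depended least on that array, with a fold of 1.17 with all arrays and 1.15 without it.

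WRKY47 (AT4G01720) was at 5.06, 4.45 and 4.75 in pam48 and at 4.93, 4.28 and 4.42 in wild type. The arrays of number 1 were the highest of both genotypes, and those of number 2 the lowest. The unpaired difference was 0.21 ± 0.23 (limma adjusted p = 0.729), and 0.06 ± 0.22 without pam48 replicate 1. By number the pairs differed by 0.14, 0.17 and 0.33, all with pam48 higher, and with the replicate number as a block the standard error was 0.12 and the limma adjusted p was 0.426.

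WRKY20 (AT4G26640), of group I, whose members carry a pair of WRKY domains, was at 7.49, 7.57 and 7.59 in pam48 and at 7.66, 7.70 and 7.81 in wild type. It was the 1 gene of the 7 with every pam48 array below every wild-type array, as in 11.4% of all probe sets. The distance between the nearest arrays was small. The difference was −0.17 ± 0.10, with an interval between −0.41 and 0.06 (limma adjusted p = 0.504), and −0.14 ± 0.11 without pam48 replicate 1.

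NAC014 (AT1G33060), which belongs to the NAC proteins with a predicted membrane anchor, was at 5.75, 6.67 and 6.84 in pam48 and at 6.39, 6.62 and 7.30 in wild type. The arrays of number 1 were the lowest of both genotypes and those of number 3 the highest, an order that pam48 and wild type shared. The difference was −0.35 ± 0.35, with an interval between −1.19 and 0.49 (limma adjusted p = 0.714). Without pam48 replicate 1 it was −0.02 ± 0.27, with an interval between −0.66 and 0.62, and without wild type replicate 3 it was −0.08. By number the pairs of NAC014 differed by −0.64, 0.05 and −0.46, and with the replicate number as a block and without pam48 replicate 1 the difference was −0.20 ± 0.18.

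**Figure D2:**
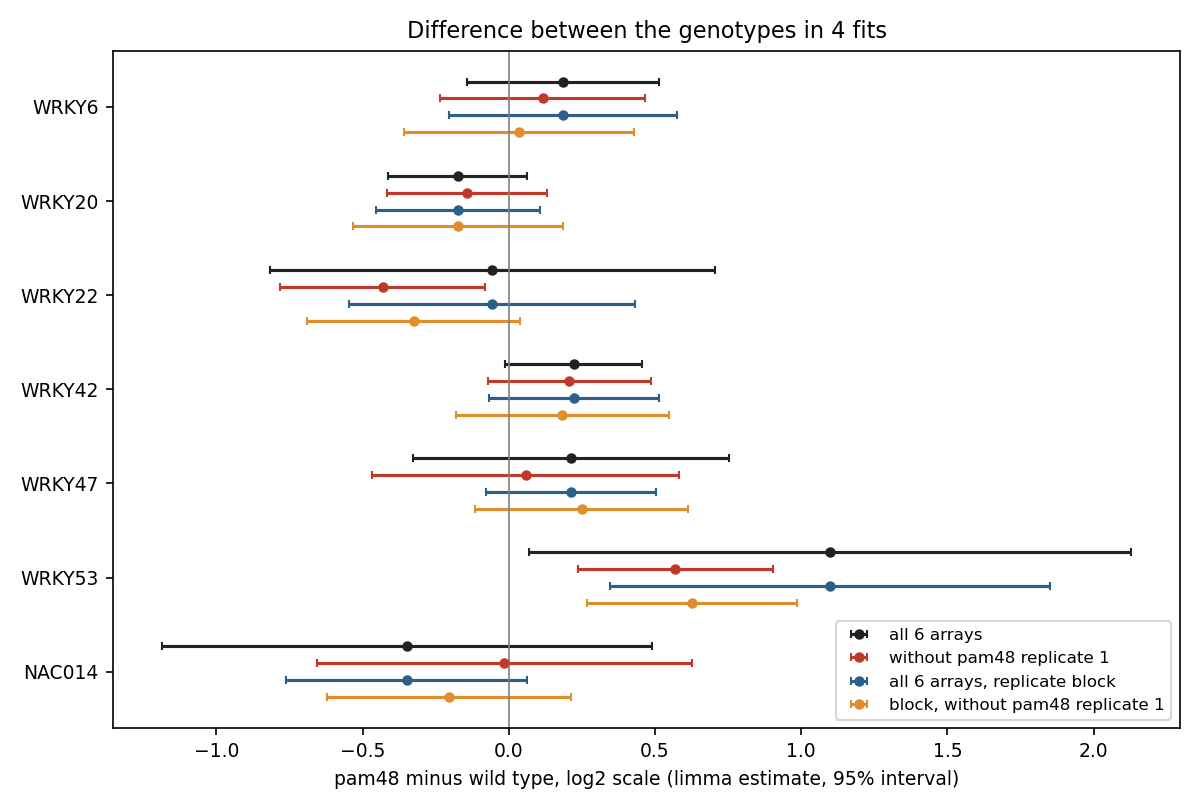
Difference of each gene on the log2 scale, pam48 minus wild type, as the limma estimate with its 95% interval in 4 fits, namely with all 6 arrays, without pam48 replicate 1, and both with the replicate number as a block. The intervals of WRKY53 lie above 0 in all 4 fits, and that of WRKY22 lies below 0 only without pam48 replicate 1 and without the block; these intervals are not adjusted over the probe sets, and no gene was called.

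pam48 replicate 1 was the highest of the 6 arrays for 5 of the 7 genes, WRKY6, WRKY22, WRKY42, WRKY47 and WRKY53, where 19.9% of all probe sets had their highest value on it. It was the lowest for the other 2, WRKY20 and NAC014, where 25.4% of all probe sets had their lowest. The array was over 1 above all others for 1 of the 7, WRKY53, against 2.35% of all probe sets. Against the mean of the other pam48 arrays it was 1.59 higher in WRKY53, 1.12 in WRKY22 and 0.46 in WRKY47, but 0.21 in WRKY6 and 0.05 in WRKY42. Of all probe sets 2.32% stood higher than WRKY53 by this measure, and 3.71% higher than WRKY22. At the other end NAC014 was at −0.999, and 97.5% of all probe sets stood higher. On this array the median WRKY gene lay 0.42 above its wild-type mean, against 0.06 and 0.10 on pam48 replicates 2 and 3.

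Wild type replicate 1 leaned in the same direction as pam48 replicate 1 in 5 of the 7 genes, where the share over all probe sets was 59.7%. Against the other wild-type arrays it was 0.58 higher in WRKY47, 0.32 in WRKY22 and 0.17 in WRKY53. NAC014 was at −0.57 and WRKY20 at −0.09 by this measure. WRKY6 and WRKY42 were the genes that leaned opposite ways, with −0.24 and −0.07 in wild type.

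pam48 replicate 1 had been singled out because earlier results showed it high in wound-induced genes, so the list of wound- and touch-induced genes is given as a description of the array and supports nothing. Of 37 loci written, 7 had a probe set of their own. All 7 were highest on pam48 replicate 1, against 19.9% of all probe sets, and 5 by over 1, against 2.35%. The mean of the list relative to wild type was 2.83 on that array, −0.02 and −0.12 on pam48 replicates 2 and 3, and 0.69, −0.31 and −0.38 on wild type replicates 1, 2 and 3. With all arrays limma called 0 of these genes, against 0.778% of all probe sets, and 0 were under 0.05 before adjustment, against 13.5%. The median difference was 0.91 with all arrays and 0.03 without pam48 replicate 1.

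STZ, a zinc finger repressor induced by wounding, cold and high light, was at 11.52, 7.53 and 7.11 in pam48 and at 8.55, 6.13 and 6.37 in wild type. AT1G76640 was at 7.96, 3.83 and 3.91 in pam48 and at 4.39, 3.87 and 4.09 in wild type. CML38, a calmodulin-like calcium sensor, was at 9.11, 4.68 and 4.33 in pam48 and at 5.93, 4.87 and 4.60 in wild type. GRX480, a glutaredoxin that binds TGA factors, was at 10.44, 6.80 and 6.26 in pam48 and at 7.82, 6.75 and 5.36 in wild type. In each of these genes the arrays of number 1 were the highest of both genotypes, as they were in WRKY22, WRKY47 and WRKY53. They were not in WRKY6, WRKY20, WRKY42 and NAC014, and the share of all probe sets with this order was not counted. CML37 of the wound list differed too, with wild type replicate 3 at 3.71 above wild type replicate 1 at 3.65. The part of this array's wound-gene level in the WRKY and NAC values was not tested; the WRKY53 difference without the array is given above.

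**Figure D3:**
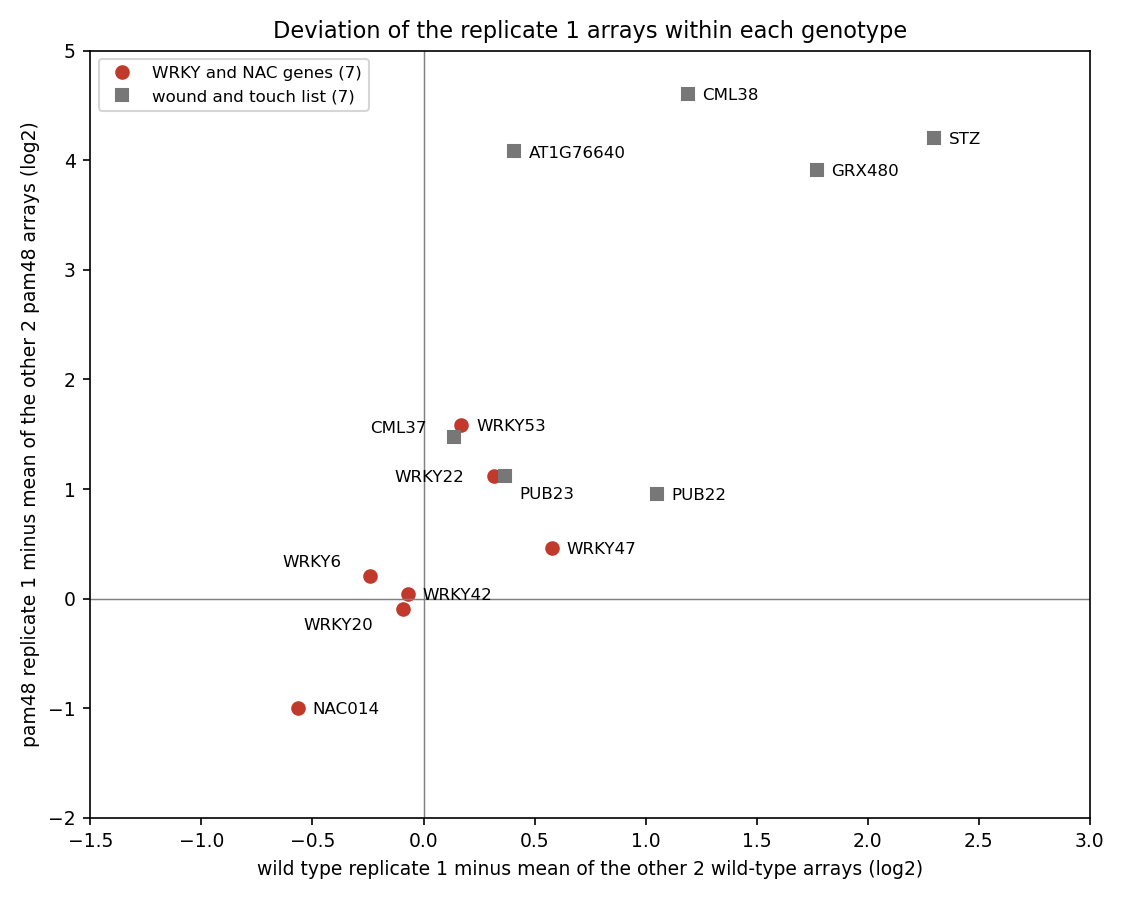
Deviation of the replicate 1 arrays on the log2 scale, with pam48 replicate 1 minus the mean of the other pam48 arrays on the vertical axis and wild type replicate 1 minus the mean of the other wild-type arrays on the horizontal axis, for the 7 WRKY and NAC genes (red circles) and the 7 genes of the wound list (grey squares). WRKY53 (1.59) and WRKY22 (1.12) lie among the lower wound genes on the vertical axis, and NAC014 (−0.999) lies at the opposite corner.

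Of the VQ motif proteins, small nuclear partners of WRKY factors, 4 of 10 listed loci were measured and 0 were called. Before adjustment 1 was under 0.05 with all arrays, against 13.5% of all probe sets. Without pam48 replicate 1 there were 2, against 15.9%. AT2G22880 was, like the wound list, highest on pam48 replicate 1, at 10.70, 4.84 and 4.66 in pam48 and at 7.62, 5.21 and 4.58 in wild type. Its difference of 0.93 ± 1.71 was −1.05 ± 0.82 without that array, so the sign rested on it. AT1G78410 was at 4.64, 5.11 and 4.51 in pam48 and at 3.91, 4.12 and 3.94 in wild type, with no overlap and a difference of 0.76 ± 0.18 (limma adjusted p = 0.137). That gene was not highest on pam48 replicate 1, and without the array it was 0.82 ± 0.19 higher. AT3G18360 had a difference of −0.25 ± 0.15 with all arrays, and of −0.39 ± 0.13 without pam48 replicate 1 (limma adjusted p = 0.222). IKU1, which acts with a WRKY factor in seed growth, had a difference of −0.01 ± 0.12.

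Defence and senescence lists, in which WRKY53, WRKY22 and WRKY6 act, were each represented by 1 gene. SAG101, a lipase-like partner of EDS1 in salicylic acid defence, was at 5.74, 5.64 and 5.61 in pam48 and at 5.03, 5.31 and 5.36 in wild type. The genotypes did not overlap, and the difference was 0.43 ± 0.12 (limma adjusted p = 0.210), or 0.39 ± 0.14 without pam48 replicate 1. SAG29, a sugar transporter of senescing leaves, was at 5.67, 5.39 and 5.56 in pam48 and at 5.85, 5.52 and 5.38 in wild type, with a difference of −0.05 ± 0.15. The genotypes overlapped in SAG29.

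The mitochondrial dysfunction list, whose genes are targets of the membrane-held factors NAC013 and NAC017, had 7 of 18 loci measured. With all arrays 1 of the 7 was called higher, AT2G21640, 0 were called lower and 6 were not called, where 0.778% of all probe sets were called. Before adjustment 2 were under 0.05, against 13.5% of all. Without pam48 replicate 1, 2 were called higher, AT2G21640 and AT5G51440, and 0 lower, where 1.28% of all probe sets were called. The median difference of the list was 0.10 with all arrays and 0.08 without pam48 replicate 1. AT2G21640 was at 7.41, 8.28 and 7.11 in pam48 and at 5.60, 5.15 and 5.56 in wild type, with a difference of 2.17 ± 0.31 (limma adjusted p = 0.0439), and 2.26 ± 0.34 without pam48 replicate 1 (limma adjusted p = 0.0447).

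AT5G51440 was at 4.01, 6.82 and 5.58 in pam48 and at 3.54, 3.99 and 3.96 in wild type. Here pam48 replicate 1 was the pam48 array nearest to wild type, whereas in WRKY53 it was the farthest. Its difference was 1.64 ± 0.65 with all arrays (limma adjusted p = 0.342). Without pam48 replicate 1 the difference was 2.37 ± 0.36 (limma adjusted p = 0.0447). AT2G04050 had the next largest difference, 0.40 ± 0.22, and was not called. The MAP kinase, camalexin and secondary wall lists had no gene with a probe set of its own in the annotation used. Whether probe sets without a listed gene measure them was not examined, and NAC013 and NAC017 were not analysed here.

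**Figure D4:**
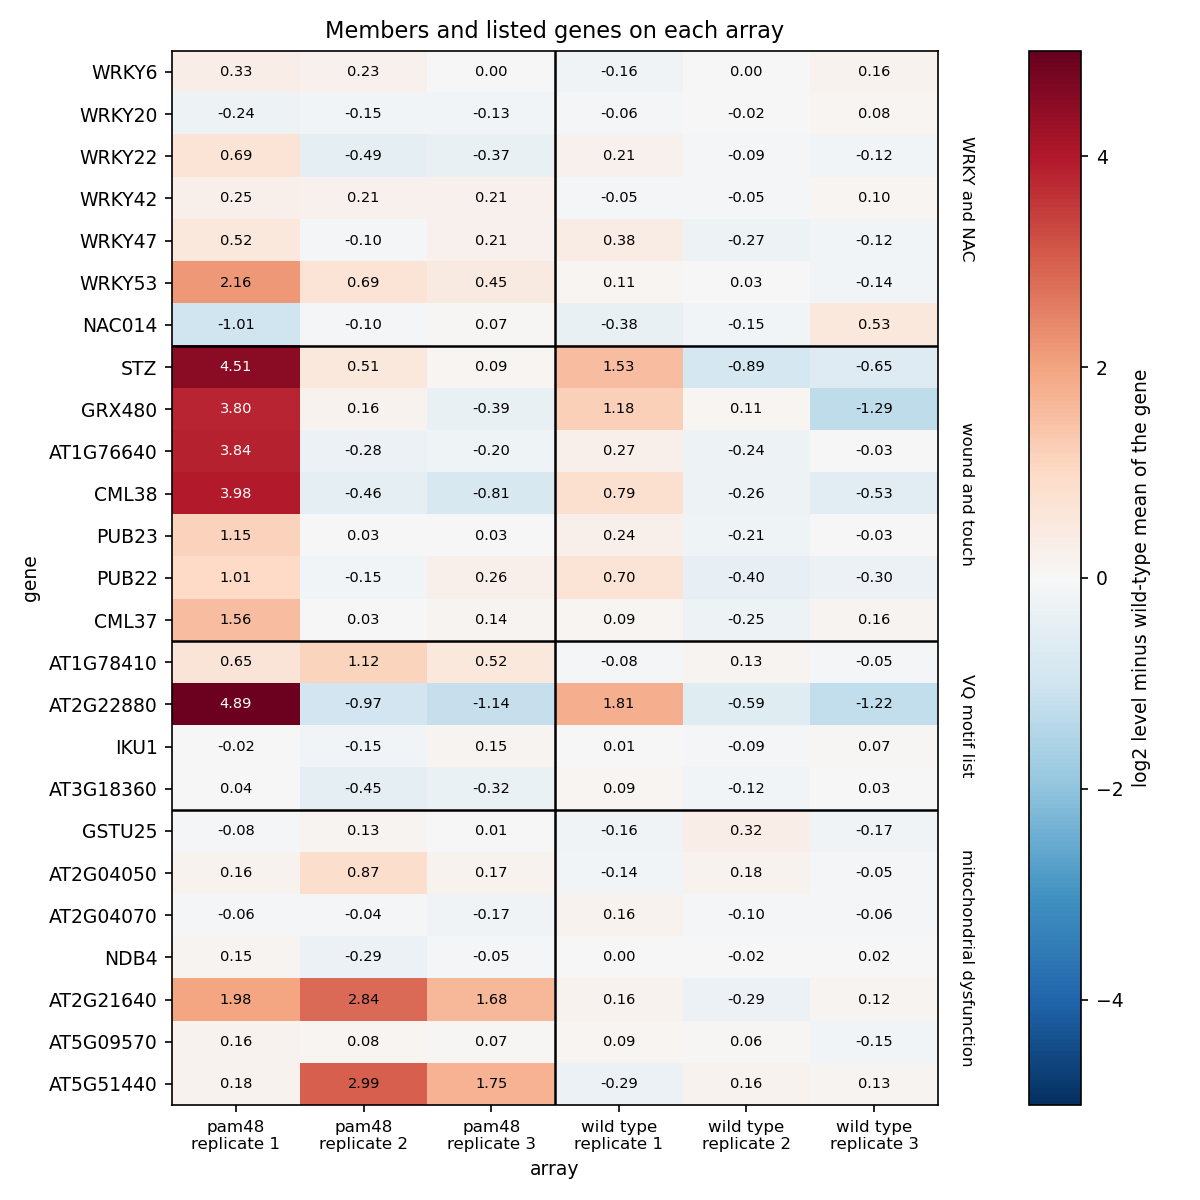
Level of each gene on each array minus the mean of the 3 wild-type arrays, on the log2 scale, with pam48 arrays at the left and genes grouped by list. WRKY53 is at 2.16, 0.69 and 0.45 on pam48 replicates 1, 2 and 3, the wound list is high on pam48 replicate 1, and AT2G21640 is above 1.6 on all pam48 arrays.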

How the data were processed

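The authors deposited log2 summaries of each probe set on Affymetrix arrays, made with RMA per the submitters' processing notes; its version is not given in the sources used here, and the log2 scale was read from the values. Of 22810 rows, 64 control probe sets were left out. GEO's platform annotation gave 1 gene for 13513 probe sets, and all 7 members were found in the TAIR10.1 gene table. Genotypes were compared over 22746 probe sets with limma 3.58.1 in R 4.3.3 (lmFit, eBayes, two-sided, Benjamini-Hochberg adjustment), tested on simulated data. Intervals are at 95%. Same-numbered arrays deviated together from their genotype means (correlations of 0.53, 0.20 and 0.54 for numbers 1, 2 and 3). A pairing by number is thus read from the data, and the labels do not state one. The main fits are unpaired, and the replicate number as a block was an alternative. Other alternatives were 2 normalizations, a filter on dim probe sets, eBayes settings, array weights, each array left out and the choice of probe sets. The members, the lists, the rule for naming (all 7 members, and the 3 largest differences of a list) and the array left out were chosen with earlier results of these data known. CML37, CML38 and IKU1 were named outside that rule. The 8 pathway lists and 6 marker lists were written from general knowledge of these pathways, with 140 loci in all, of which the 5 measured pathway lists held 20 genes. Scanner intensities were not used, and the number of arrays limits the precision.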

Additional observations from a re-analysis of the deposited data

How the results depend on the processing

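No member was called under any alternative run, nor at an adjusted p under 0.01, and between 0 and 2 members were under 0.05 before adjustment. With the replicate block 0 members were called, and 1 was under 0.05 before adjustment. Apart from the fit without pam48 replicate 1, shares of all probe sets in the alternative fits are not given here. Whether the member counts in those fits differ from such shares was not examined. The limma adjusted p of WRKY53 was 0.153 with the block, and 0.0809 with the block and without pam48 replicate 1. The block changed no call. The WRKY median of 0.20 became −0.17 without the 40% dimmest probe sets, because that filter left WRKY20 as the 1 WRKY gene: 5 of the 7 genes, all but WRKY20 and NAC014, lay below its limit. Otherwise the median was between 0.09 and 0.22. WRKY22 (−0.06) was at 0.0058 with quantile normalization and between −0.43 and 0.16 when 1 array was left out, being above 0 without wild type replicate 1, pam48 replicate 2 or pam48 replicate 3. WRKY53 was between 0.57 and 1.42 when 1 array was left out and 0.76 with array weights. NAC014 was between −0.56 and −0.02 when 1 array was left out and −0.06 with array weights. Means over probe sets and probe sets of several genes changed nothing, as each gene had 1 probe set and no shared one. Signal over background was not used, so what it limits is unknown.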

Other observations

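ZAP1 (AT2G04880), whose synonym in the gene table is WRKY1, a group I factor like WRKY20, does not carry a WRKY symbol and was looked at after the names had been seen. It was at 8.34, 8.29 and 8.16 in pam48 and at 8.14, 8.39 and 8.51 in wild type. The genotypes overlapped, the difference was −0.08 ± 0.13 (limma adjusted p = 0.821), and without pam48 replicate 1 it was −0.12 ± 0.15. With this gene the count of called members was still 0.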
